A study of Mus musculus with 32 samples.

Results

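The p53 target genes described here were the 10 genes Cdkn1a, Ccng1, Mdm2, Bax, Bbc3, Trp53inp1, Phlda3, Eda2r, Sesn2 and Gdf15, taken as the array probes whose gene name is one of these symbols. They were 10 of 33253 gene symbols on the array and were read on 13 probes, 1 probe for 7 genes and 2 each for Cdkn1a, Trp53inp1 and Eda2r. RNA of whole, perfused lungs of newborn C57BL/6J wild-type mice was hybridized to one-color arrays, 1 array for each of 32 mice. The mice formed 8 groups of 4, with every combination of an age (post-natal day (P)5 or P14), an oxygen level (21% O2 or 85% O2 from birth on) and an injected oligonucleotide. The oligonucleotide was antimiR-34a, an LNA inhibitor of miR-34a, or a scrambled antimiR with no intended target, so that no group was left without an injection. Hyperoxia of newborn mice is used as a model of bronchopulmonary dysplasia (BPD), the lung disease of preterm infants in which alveoli fail to form. The labels gave neither litter nor sex. Per the labels P5 mice were euthanized with pentobarbital and P14 mice with isoflurane, while the methods name pentobarbital at both ages, so that a difference in anesthesia between the ages is uncertain.

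The transcription factor p53 is stabilized when DNA is damaged, as reactive oxygen species can do, and then binds DNA at pairs of short half-sites near its target genes. Its targets arrest the cell cycle, limit oxidative stress, trigger apoptosis, and, through Mdm2, lead to the destruction of p53 itself. The miR-34a gene is also a p53 target, and miR-34 family microRNA in turn repress messages of the cell cycle and survival, which is why the response of p53 targets to antimiR-34a is of interest.

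The microRNA that the oligonucleotide was directed at is shown first with its family member miR-34b-5p, because the antimiR acts by base pairing and both share 1 seed (bases 2 to 8, in capitals). The paper reports that the antimiR did not change miR-34b in the lung and moderately affected miR-34c, which is not shown. Sequences are from RefSeq, build GRCm38.p6, where miR-34a-5p lies on chr4:150068473-150068494, plus strand. The array carried no probe named for a miR-34 transcript, so the microRNA itself was not measured here.
mmu-miR-34a-5p: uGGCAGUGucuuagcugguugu
mmu-miR-34b-5p: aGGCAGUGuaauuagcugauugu

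Promoter windows of 300 bases, 250 before to 50 after a start site, were searched for the p53 half-site consensus of 10 bases on both strands, with the same RefSeq build. Of 32851 windows of all genes, 8.36% held a half-site and 0.0731%, 24 windows, held 2 half-sites no more than 13 bases apart. Among the members, 9 had a window, 13 windows in all, and 4 of them held a half-site (Cdkn1a, Ccng1, Mdm2 and Bax). The upstream of 2 Cdkn1a windows was 1 of the 24. It is printed because Cdkn1a rose by more than every other member but Gdf15 among the 9 measured on all arrays (chr17:29090729-29091028, plus strand). Capitals mark half-sites beginning 73 and 51 bases before the start, 12 bases apart, and the 10 bases directly after the second, which match the consensus at 9 positions.
Cdkn1a, upstream start: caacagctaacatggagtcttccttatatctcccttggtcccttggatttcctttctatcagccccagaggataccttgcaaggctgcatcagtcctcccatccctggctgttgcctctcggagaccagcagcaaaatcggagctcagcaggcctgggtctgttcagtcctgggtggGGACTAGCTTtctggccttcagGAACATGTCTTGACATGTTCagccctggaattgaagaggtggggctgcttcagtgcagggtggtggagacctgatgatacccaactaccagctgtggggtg

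The other Cdkn1a window, 2790 bases downstream, held no half-site. The other 3 members with a half-site are shown in 30 bases around it, to let the sites be compared, with the half-site in capitals. In Ccng1 the capitals also hold the 10 bases before it, so that the run of 20 bases matched a directly paired site at 19 positions (chr11:40755462-40755481, minus strand, 195 bases before the start). The Cdkn1a run of 20 bases matched at 19 positions too (chr17:29090928-29090947), and a run that close occurred in 29 of the 32851 windows (0.0883%). A match describes letters and does not show binding, and its absence in a short window says nothing about p53.
Ccng1, chr11:40755452-40755481, minus strand: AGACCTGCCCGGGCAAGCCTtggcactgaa
Mdm2, chr10:117710925-117710954, minus strand: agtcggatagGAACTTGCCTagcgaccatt
Bax, chr7:45467080-45467109, minus strand: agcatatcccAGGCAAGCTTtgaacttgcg

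A level below is the log2 of a probe's processed signal minus that array's 75th percentile, so a level of 0 is the brightness of that percentile. Levels can be compared between mice on 1 probe, not between probes. From 33607 to 40776 of 55681 probes were well above background on an array, and no spot was saturated on any array. All 10 members were tested; 9 were well above background on all 32 arrays, and Eda2r passed only through the 85% O2 arrays. The 4 slides of 8 arrays each held 1 age and 1 oxygen level, so that slide and oxygen, and slide and age, cannot be told apart, whereas scrambled and antimiR-34a mice shared slides but lay in different array rows. Alveolar, endothelial and other lung cell markers were high on every array (mean log2 level 5.05 to 5.78 over 10 genes), and 10 of 10 were well above background. Fewer cells of a type and less RNA per cell cannot be told apart in whole lung.

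The 9 p53 target genes measured on all arrays rose in 85% O2 in each of 4 comparisons, in scrambled and in antimiR-34a mice at both ages. Eda2r was called higher in each as well, but it entered the test only through the 85% O2 arrays, so its call adds no support. Gdf15, Cdkn1a and Eda2r rose most, Eda2r by at least 8.60-fold, Cdkn1a by 14.4-fold and Gdf15 by 27.3-fold in P5 scrambled mice, and the remaining 7 genes rose between 1.91-fold and 5.38-fold in scrambled mice. Of all genes tested, 18.6% rose at P5 and 29.4% at P14 in scrambled mice, and 27.2% and 32.2% fell. In antimiR-34a mice 18.6% and 30.1% rose, and 29.5% and 36% fell. The highest adjusted p among the members was 0.00173 at P5 and 0.000192 at P14 in scrambled mice, and 2.72e-05 and 0.00197 in antimiR-34a mice, Bax in each case (limma, adjusted over all probes tested).

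Cdkn1a encodes p21, the inhibitor of cyclin-dependent kinases by which p53 halts the cell cycle. Its main probe lies at chr17:29237377-29237436 (mm9, the build of the array's annotation). At P5 its levels in scrambled mice were 0.26, 0.02, 0.12 and 0.94 in 21% O2 and 4.16, 4.26, 4.15 and 4.18 in 85% O2. At P14 the levels were 0.59, 0.23, 0.61 and 0.26 in 21% O2 and 4.90, 4.78, 4.75 and 4.84 in 85% O2. The groups stood far apart at both ages. The rise was 14.4-fold at P5 (log2 3.85, SE 0.15, adjusted p 3.39e-10, limma) and 21.0-fold at P14 (log2 4.40, SE 0.12, adjusted p 2.02e-11, limma). In antimiR-34a mice it was 17.96-fold at P5 and 26.96-fold at P14.

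A second Cdkn1a probe, annotated to another transcript, lies 9391 bases upstream of the main probe (chr17:29227986-29228045, mm9). In P5 scrambled mice in 21% O2 its levels were -5.97, -5.52, -5.70 and -5.61, the first of them not well above background. In 85% O2 they were -0.10, -0.18, -0.02 and 0.17. At P14 they were -4.23, -4.32, -4.64 and -4.93 in 21% O2 and 1.20, 1.42, 1.07 and 1.05 in 85% O2. At P5 this probe thus moved from the edge of detection to a clear signal in every 85% O2 mouse, while at P14 all 21% O2 arrays were well above background. On this scale the rise was 50.9-fold at P5 and 52.6-fold at P14 in scrambled mice. In antimiR-34a mice at P5 no 21% O2 array was well above background, and the rise was at least 66.3-fold on the same scale. At P14 it was 61.1-fold. All 4 sizes depend on the background correction. With normexp the log2 rises were 3.73 and 4.496 in scrambled mice and 3.75 and 4.59 in antimiR-34a mice, lower in each case, and the bound does not hold there.

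**Figure D1:**
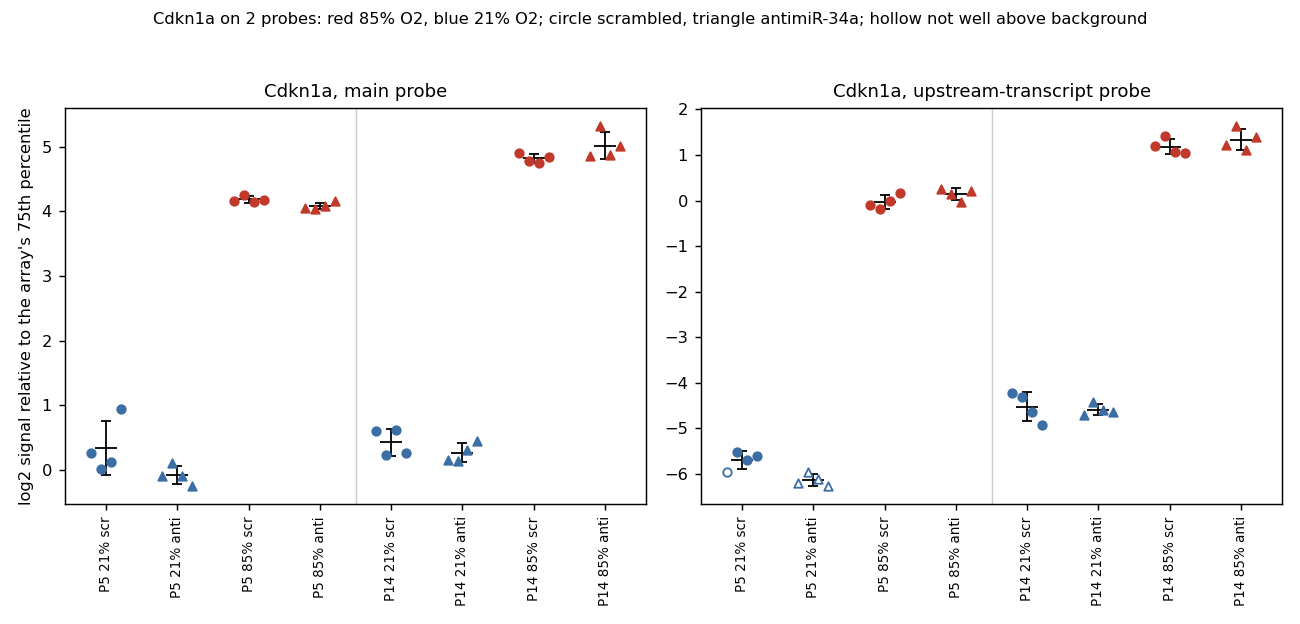
Log2 signal of the main Cdkn1a probe (left) and of the upstream probe (right), minus the 75th percentile of its array, with 1 point for each of 32 mice, in 8 groups; bars give mean ± SD. On both probes all 85% O2 mice (red) lie above all 21% O2 mice (blue), with a gap of 3.097 on the main and 4.06 on the upstream probe.

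On this scale the upstream probe rose by more than the main probe within the same arrays, by 1.82 at P5 and 1.32 at P14 in scrambled mice and by 1.18 at P14 in antimiR-34a mice (log2). The P5 comparison in antimiR-34a mice gives only a bound, since its 21% O2 signals were below detection. There the upstream probe rose by at least 6.05 and the main probe by 4.17. An exact two-sided permutation test of 4 mice against 4 gave p = 0.0286 for each of the other comparisons, the smallest p it allows. The adjusted p was 0.0286 over all 4 tests, that of P5 antimiR-34a mice included. The size rests on how background was treated at the dim end. With normexp background correction the differences were -0.06 and 0.19 in scrambled mice at P5 and P14 and -0.05 in antimiR-34a mice at P14, with adjusted exact p from 0.743 to 0.8. In antimiR-34a mice at P5 the difference with normexp was -0.31 (exact p 0.0286, adjusted 0.114), on the same signals below detection. That the upstream probe rose with the main probe therefore held under both corrections, and that it rose more did not.

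Ccng1 encodes cyclin G1, which binds a phosphatase that acts on Mdm2. In scrambled mice at P5 its levels were 0.43, 0.36, 0.37 and 0.70 in 21% O2 and 2.77, 2.84, 2.99 and 2.98 in 85% O2. At P14 they were 0.97, 0.92, 0.82 and 0.74 against 3.02, 2.90, 2.80 and 2.76. The 85% O2 levels of the 2 ages overlapped, while every P14 mouse in 21% O2 was above every P5 mouse. The rise was 5.38-fold at P5 (log2 2.43, SE 0.09) and 4.03-fold at P14 (log2 2.01, SE 0.10).

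Mdm2, the ubiquitin ligase that targets p53 for degradation and closes the feedback loop, was at 3.83, 3.75, 3.70 and 3.69 in P5 scrambled mice in 21% O2 and at 5.13, 4.75, 4.98 and 4.82 in 85% O2. At P14 the levels were 3.52, 3.44, 3.59 and 3.67 against 4.90, 4.92, 5.06 and 5.05. No mouse in 85% O2 was below any in 21% O2. The rise was 2.26-fold at P5 (log2 1.18, SE 0.08) and 2.68-fold at P14 (log2 1.42, SE 0.08) in scrambled mice, and 1.90-fold and 3.41-fold in antimiR-34a mice.

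Bax, which permeabilizes the mitochondrial outer membrane in apoptosis, had the widest spread of the 9 genes measured on all arrays (SD up to 0.63 within a group). In P5 scrambled mice it was at 2.80, 2.75, 2.76 and 2.74 in 21% O2 and at 3.19, 3.27, 3.93 and 4.38 in 85% O2. At P14 it was at 2.53, 3.00, 2.46 and 3.52 against 4.60, 4.69, 4.61 and 4.75. The lowest 85% O2 mouse was still above the highest 21% O2 mouse at each age. The rise was 1.91-fold at P5 (log2 0.93, SE 0.20) and 3.44-fold at P14 (log2 1.78, SE 0.30). By the methods' t-test in place of limma, the P5 rise had an adjusted p of 0.104. In P14 antimiR-34a mice in 85% O2 Bax was at 4.56, 4.76, 3.40 and 4.64, and the third of these lay below 1 antimiR-34a mouse in 21% O2, at 3.55.

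Bbc3 encodes Puma, which neutralizes the anti-apoptotic relatives of Bax. Its levels in P5 scrambled mice were 1.71, 1.73, 1.75 and 1.75 in 21% O2 and 2.92, 2.72, 2.92 and 3.05 in 85% O2. At P14 they were 1.60, 2.22, 1.60 and 2.20 against 2.94, 2.98, 3.05 and 3.12. Replicates 2 and 4 of the P14 21% O2 scrambled group, which were also the highest of the group in Bax, were the higher pair here. The rise was 2.24-fold at P5 (log2 1.17, SE 0.08) and 2.17-fold at P14 (log2 1.12, SE 0.16).

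Trp53inp1, a nuclear protein induced by stress that promotes p53 activity, was at 1.84, 2.05, 2.08 and 2.01 in P5 scrambled mice in 21% O2 and at 3.46, 3.38, 3.48 and 3.51 in 85% O2. At P14 it was at 2.37, 2.22, 2.22 and 1.97 against 3.05, 3.21, 3.19 and 3.22. The rise on this probe was 2.76-fold at P5 (log2 1.46, SE 0.06) and 1.96-fold at P14 (log2 0.97, SE 0.11). The second Trp53inp1 probe rose by 1.44 and 1.31 on the log2 scale, so that the probes differed little at P5 and by more at P14.

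Phlda3, an inhibitor of Akt signaling, was at 3.91, 3.98, 3.87 and 3.94 in P5 scrambled mice in 21% O2 and at 5.37, 5.44, 5.34 and 5.36 in 85% O2. At P14 the levels were 4.29, 4.14, 4.22 and 4.26 against 6.19, 6.31, 6.36 and 6.45. The 4 scrambled mice in 85% O2 at P5 lay within an SD of 0.04, the smallest of the 10 genes in that group. The rise was 2.74-fold at P5 (log2 1.46, SE 0.05) and 4.28-fold at P14 (log2 2.10, SE 0.08).

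Eda2r, a receptor of the tumor necrosis factor receptor family for ectodysplasin A2, was not well above background on any of the 16 arrays of 21% O2 and was well above it on all 16 arrays of 85% O2. Its levels in 85% O2 scrambled mice were -2.97, -3.22, -2.82 and -3.14 at P5 and -2.74, -2.72, -2.59 and -2.54 at P14. The rise can only be bounded. Against the faintest signal well above background on the same arrays it was at least 8.60-fold at P5 and at least 13.9-fold at P14 in scrambled mice. In antimiR-34a mice it was at least 6.61-fold and at least 11.8-fold. The second Eda2r probe gave bounds of at least 5.70-fold, 9.23-fold, 4.07-fold and 9.28-fold in the same order.

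Sesn2 encodes sestrin 2, which counters oxidative stress and restrains mTORC1. It was at 0.21, 0.16, 0.27 and 0.18 in P5 scrambled mice in 21% O2 and at 1.79, 1.68, 1.62 and 1.63 in 85% O2. At P14 it was at 0.78, 0.71, 0.89 and 0.59 against 1.90, 1.93, 2.10 and 2.24. The rise was 2.78-fold at P5 (log2 1.48, SE 0.08) and 2.47-fold at P14 (log2 1.303, SE 0.09).

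Gdf15, a secreted member of the TGF-β superfamily that is induced by many stresses, was at -2.36, -2.42, -2.33 and -2.23 in P5 scrambled mice in 21% O2 and at 2.46, 2.45, 2.56 and 2.27 in 85% O2. At P14 it was at -1.98, -1.66, -1.70 and -1.82 against 2.88, 3.08, 3.16 and 3.74. Every 85% O2 mouse stood far above every 21% O2 mouse. The rise was 27.3-fold at P5 (log2 4.77, SE 0.09) and 32.1-fold at P14 (log2 5.005, SE 0.20) in scrambled mice, and 18.9-fold and 44.5-fold in antimiR-34a mice.

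**Figure D2:**
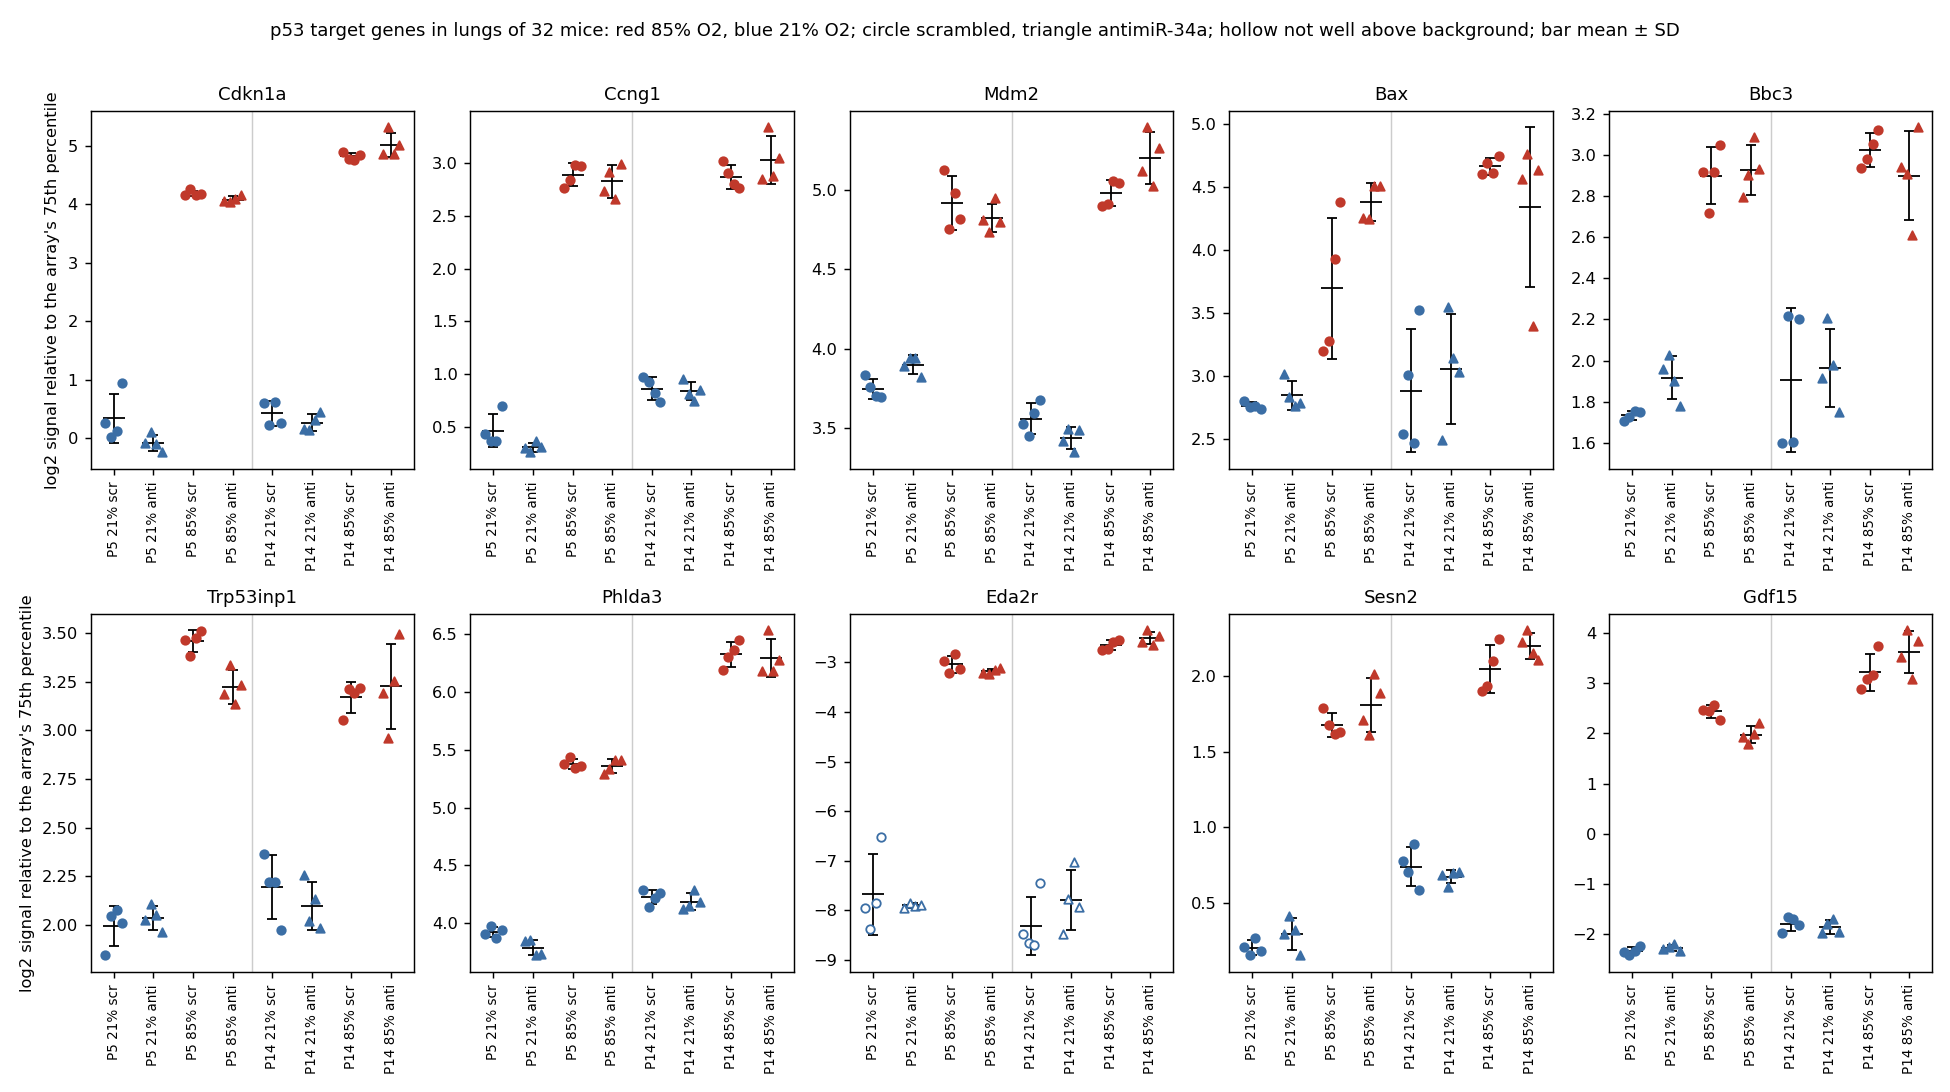
Log2 signal of each of the 10 genes on its brightest probe, minus the 75th percentile of its array, with 1 point per mouse and mean ± SD for the 8 groups of 4; hollow points were not well above background. The red points (85% O2) lie above the blue points (21% O2) at every age for all genes but Bax, where 1 antimiR-34a mouse at P14 (3.40) falls among the 21% O2 mice.

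Over both ages and both oligonucleotides, the 16 mice in 85% O2 and the 16 in 21% O2 did not overlap in 8 of the 9 genes measured on all arrays, where 7.88% of 25711 genes had levels that did not overlap and 4.17% were higher in 85% O2. The gap between the highest 21% O2 mouse and the lowest 85% O2 mouse was 3.45 in Gdf15, 3.097 in Cdkn1a, 1.69 in Ccng1 and 1.00 in Phlda3, and was smallest in Bbc3 at 0.40 (log2). Bax overlapped, with an 85% O2 mouse at 3.19 and a 21% O2 mouse at 3.55. Within the single comparisons, 10, 10, 10 and 9 of the 10 genes had groups that did not overlap (scrambled P5 and P14, antimiR-34a P5 and P14), against 41%, 58.2%, 44% and 59.9% of all genes tested. Eda2r is in each of these counts, but it passed the filter only through the 85% O2 arrays, so its separation adds no support to them. By the fitted size of the rise in scrambled mice, Gdf15 ranked 4, Cdkn1a 8 and Ccng1 35 among 23959 genes at P5, and the other members with a measured fold ranked from 163 (Sesn2) to 461 (Bax). Among 25371 genes at P14 Gdf15 ranked 9, Cdkn1a 20, Phlda3 226 and Ccng1 261, and the others from 351 (Bax) to 1564 (Trp53inp1).

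The median log2 change of the 10 genes was 1.47 at P5 and 1.90 at P14 in scrambled mice and 1.55 and 1.94 in antimiR-34a mice. The median over all genes tested was between -0.08 and -0.05 in the 4 comparisons. Eda2r lay above the median of the 10 at its bound as well. The scrambled and the antimiR-34a comparison of 1 age have no mouse in common. The largest difference between them for a gene was 0.60 at P5 and 0.49 at P14, both in Bax.

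**Figure D3:**
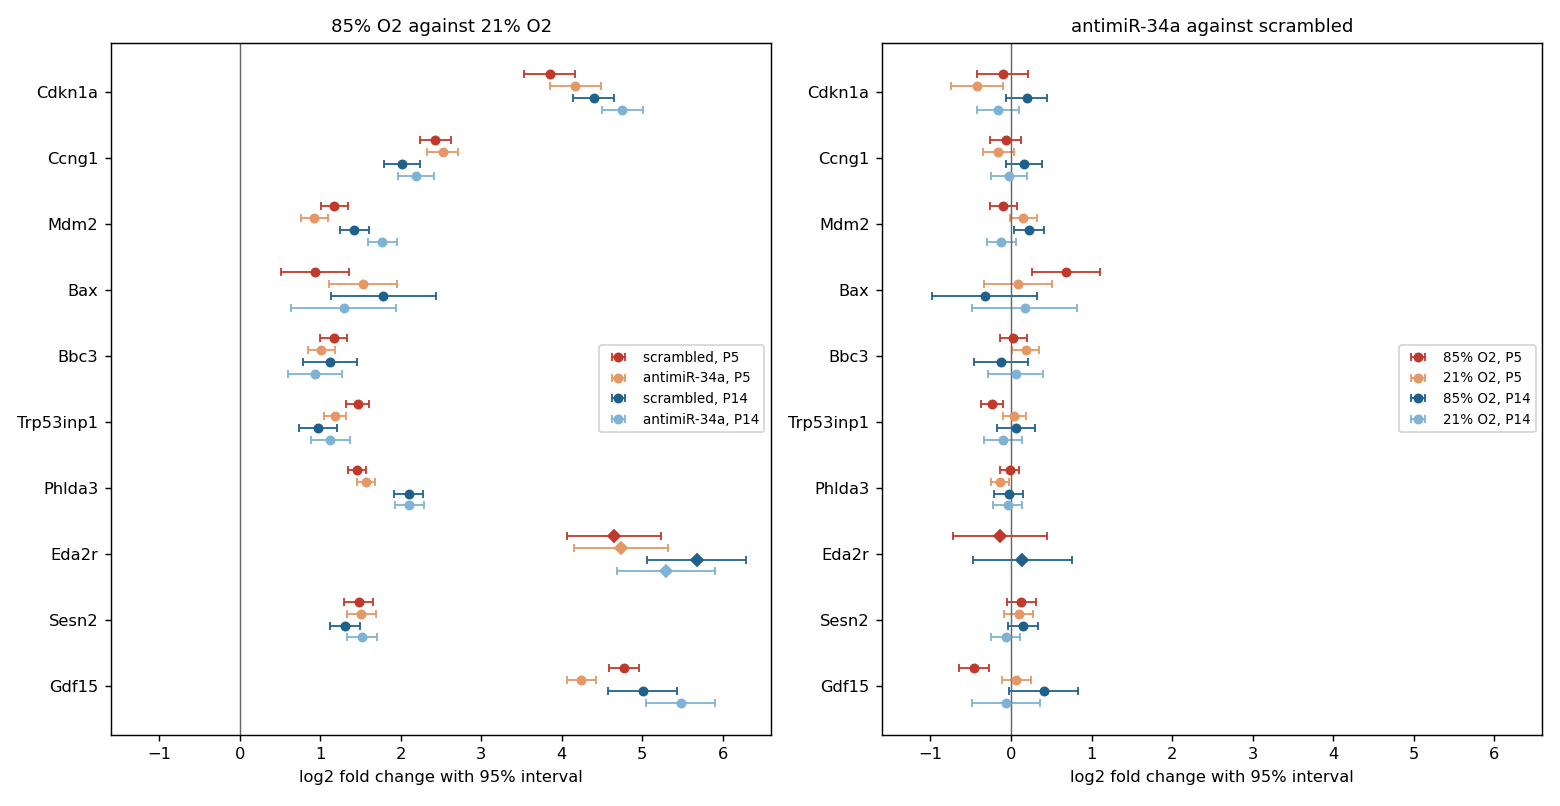
Log2 fold change with its 95% interval (limma) for the 10 genes, on the left 85% O2 against 21% O2 and on the right antimiR-34a against scrambled antimiR, each in 4 comparisons. Leaving Eda2r aside, oxygen changes lie between 0.93 and 5.47 and antimiR-34a changes between -0.46 and 0.68; diamonds (Eda2r) rest on a group not well above background or on dim signals, and Eda2r is left out on the right for 21% O2, where neither group was well above background.

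Whether p53 target genes responded to the inhibitor was asked in 4 contrasts of antimiR-34a with scrambled mice, 1 for each pairing of age and oxygen. None of the 10 genes was called in any of the 4 comparisons (limma, adjusted over all probes). Of all genes tested, 0.071% were called in 85% O2 at P5, 2.59% in 85% O2 at P14, 0.125% in 21% O2 at P5 and 0% in 21% O2 at P14. In the last of these, 0 of 25371 genes were called by limma and 2573 had an unadjusted limma p under 0.05. The methods' t-test with the same adjustment called 0, 0, 1 and 0 of all genes in these comparisons, so that its lack of calls says nothing about the members.

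Cdkn1a differed by -0.10 (95% interval -0.42 to 0.21) in 85% O2 at P5, with levels of 4.05, 4.03, 4.09 and 4.15 in antimiR-34a mice. In 85% O2 at P14 it differed by 0.20 (-0.06 to 0.45), with levels of 4.86, 5.32, 4.87 and 5.01. In 21% O2 the differences were -0.42 (-0.74 to -0.10) at P5, where the adjusted p was 0.196 (limma), and -0.16 (-0.42 to 0.09) at P14. Without scrambled replicate 4, whose level of 0.94 was the highest of its group, the P5 difference in 21% O2 was -0.22.

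In 85% O2 at P5, Gdf15 had the smallest p of the members. Its levels were 1.94, 1.78, 1.98 and 2.20 in antimiR-34a mice against 2.46, 2.45, 2.56 and 2.27 in scrambled mice, so that the groups did not overlap, as in 6.05% of all genes. The difference was -0.46 (SE 0.09, 95% interval -0.64 to -0.28), with an adjusted p of 0.0681. It passed 0.05 with no filter on dim probes (adjusted p 0.0189) and without scrambled replicate 4 (0.0295, where Bax passed too) or antimiR-34a replicate 4 (0.0267). Trp53inp1 (-0.24, adjusted p 0.174) and Bax (0.68, adjusted p 0.194) also had an unadjusted p under 0.05 there and are named after their values were seen. In 85% O2 at P14 the smallest p was that of Mdm2 (0.22, SE 0.08, adjusted p 0.192), and Gdf15 differed by 0.41 (-0.02 to 0.83). In 21% O2 at P5 Cdkn1a had the smallest p, and in 21% O2 at P14 it was Eda2r, of which neither group was well above background, so that no fold is given. Leaving Eda2r aside, the intervals of the members reached from -0.64 to 1.11 in 85% O2 at P5 and from -0.98 to 0.83 in 85% O2 at P14.

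The oxygen change did not pass the test of a difference between antimiR-34a and scrambled mice in any of the 10 genes, at either age (interaction term, limma). Of all genes tested 0.0543% passed at P5 and 0.0788% at P14. The interaction of Cdkn1a was 0.32 (95% interval -0.13 to 0.77) at P5 and 0.36 (-0.01 to 0.72) at P14. Without replicate 4 of the P5 21% O2 scrambled group the P5 value was 0.12. The smallest p belonged to Gdf15 at P5 (-0.53, SE 0.12, adjusted p 0.162) and to Mdm2 at P14 (0.35, SE 0.12, adjusted p 0.23). At an unadjusted p under 0.05 there were 4 members at P5 (Mdm2, Trp53inp1, Bax and Gdf15) and 1 at P14 (Mdm2), which are named here for that reason alone.

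Age was compared within each oxygen level in scrambled mice, and the oxygen change was compared between ages. With age in 21% O2 4 genes rose, Ccng1 (0.40), Phlda3 (0.30), Gdf15 (0.54) and Sesn2 (0.54), beside 52.2% of all genes called in either direction. Without replicate 4 of the P14 21% O2 scrambled group 7 genes were called, with Mdm2, Trp53inp1 and Eda2r added, of which Eda2r was below detection in both groups and gives no age difference. Without replicate 4 of the P5 21% O2 scrambled group Cdkn1a differed by 0.29 and was called (adjusted p 0.0313, limma). Values not called were 0.09 for Cdkn1a, -0.19 for Mdm2, 0.20 for Trp53inp1 on its brightest probe, 0.12 for Bax and 0.17 for Bbc3, and Eda2r was not well above background in either group. The second Trp53inp1 probe rose by 0.71 and was called. With age in 85% O2 5 genes rose, Cdkn1a (0.63), Phlda3 (0.95), Bax (0.97), Gdf15 (0.78) and Sesn2 (0.36), beside 44.1% of all genes called. Trp53inp1 fell by 0.29 there on its brightest probe, while its second probe rose by 0.58, so that the gene has no settled direction with age. The values of Mdm2 (0.06), Ccng1 (-0.02), Eda2r (0.39) and Bbc3 (0.12) were not called. The upstream Cdkn1a probe rose with age by 1.17 in 21% O2 and by 1.21 in 85% O2.

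The oxygen change differed between the ages in 4 of the 9 genes measured on all arrays in scrambled mice, a share near the 41.9% of all genes called. It was larger at P14 in Phlda3 (by 0.64, SE 0.09, adjusted p 9.85e-06) and, on its main probe, Cdkn1a (by 0.55, SE 0.19, adjusted p 0.0269). The upstream Cdkn1a probe differed by 0.05 in scrambled mice and was not called, but this depends on the background correction. With normexp its rises there were 3.73 at P5 and 4.496 at P14, and those of the main probe 3.79 and 4.31. In antimiR-34a mice no P5 21% O2 array was well above background on the upstream probe, so no difference between the ages is given. The fitted call of Eda2r is set by 21% O2 signals that were not well above background and gives no difference between the ages. The oxygen change was smaller at P14 in Ccng1 (-0.42, SE 0.14, adjusted p 0.0163) and in Trp53inp1 (-0.49, SE 0.13, adjusted p 0.00309), whose second probe differed by -0.13 and was not called. Without replicate 4 of the P5 21% O2 scrambled group the Cdkn1a difference was 0.35 (adjusted p 0.0665, limma). Without that mouse, or without replicate 2 of the P14 21% O2 scrambled group, 3 genes passed, Ccng1, Trp53inp1 and Phlda3. The differences of Mdm2 (0.25), Bax (0.85), Gdf15 (0.23), Sesn2 (-0.17) and Bbc3 (-0.05) were not called. In antimiR-34a mice 4 genes passed, Mdm2 (0.84, adjusted p 2.71e-06), Gdf15 (1.23, adjusted p 8.61e-05), Phlda3 (0.54) and Cdkn1a on its main probe (0.59), all larger at P14, beside 44% of all genes. Not called in antimiR-34a mice were Ccng1 (-0.33), Trp53inp1 (-0.06), Bax (-0.24), Sesn2 (0.01) and Bbc3 (-0.08).

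Beyond the 10 members, 28 further p53 target genes were listed and all were tested. In scrambled mice 20 rose, 3 fell and 5 were not called at P5, with a median of 0.52, and 18 rose, 3 fell and 7 were not called at P14, with a median of 0.50. In antimiR-34a mice 20 rose and 4 fell at P5, and 19 rose and 3 fell at P14. The 5 largest changes at P5 were rises of the zinc finger gene Zmat3 (2.39), the death receptor gene Tnfrsf10b (2.13), the nuclease gene Aen (2.02), the epoxide hydrolase gene Ephx1 (1.95) and Pmaip1 (1.57), which encodes the Bax regulator Noxa. At P14 they were Aen (2.43), Tnfrsf10b (2.39), the PIDDosome gene Pidd1 (2.37), Rrm2b (-2.15) and Zmat3 (2.07). Rrm2b, a ribonucleotide reductase subunit, was called lower at both ages on its brightest probe, while its second probe was at 0.32 at P5, not called, and at -0.79 at P14, called lower. The array's annotation placed the probes of Aen, Rrm2b and Sfn on another chromosome than the gene, so these 3 are uncertain. In the antimiR-34a comparisons 1 of the 28 was called, the antiproliferative gene Btg2 in 85% O2 at P14 (0.69, SE 0.14, adjusted p 0.0239).

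Of the 15 genes of p53 and its regulators, 3 rose and 1 fell at P5 and 6 rose and 5 fell at P14 in scrambled mice. At P14 this was near the share of all genes, of which 29.4% rose and 32.2% fell, as was the number that rose at P5 (18.6% of all genes). Trp53, which encodes p53, differed by 0.12 at P5 (adjusted p 0.437) and by 0.68 at P14 (adjusted p 8.32e-05). Its mean levels in scrambled mice were -2.03 ± 0.16 against -1.91 ± 0.09 at P5 and -1.97 ± 0.14 against -1.28 ± 0.15 at P14 (SD, n = 4). Its probe was placed on chromosome 17 and the gene on chromosome 11, so the probe's target is uncertain.

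Mdm4, the Mdm2 relative that inhibits p53, differed by -0.12 and 1.40 on a probe placed on X, and by -0.28 and 0.17 on its probe on chromosome 1, where the gene lies. Among the kinases, Atm differed by -0.08 at P5 and -0.38 at P14 (0.21 at P14 on its second probe, not called), Atr by 0.20 and 0.21, Chek1 by -0.35 and -0.54 (the latter called, adjusted p 0.0336 by limma, but 0.155 with normexp and -0.09 with quantile normalization, neither called), Chek2 by -0.29 and -0.46, and Hipk2 by -0.12 and 0.16. The second Hipk2 probe was at 0.12 and 0.62, and the latter was called. Cdkn2a, the locus of the Mdm2 inhibitor Arf, differed by 0.04 and 0.82. Among the ubiquitin ligases, Cop1 differed by 0.30 and 0.31 on a probe placed on X, with another probe at 0.10 and -0.23, and Rchy1 by 0.53 and -0.04. The remaining values were 0.02 and 0.28 for the deubiquitinase Usp7, 0.10 and -0.41 for the phosphatase Ppm1d, -0.17 and -0.40 for the deacetylase Sirt1, -0.31 and -0.36 for Trp63 and -0.02 and 0.47 for Trp73, both p53 family members. A second Trp73 probe was called lower at both ages (-0.44 and -0.45), and so were 2 further Trp63 probes at P14 (-1.51 and -2.39). On the brightest probes those called at P5 were Atr, Cop1 and Rchy1 (higher) and Trp63 (lower). Of the probes on chromosome 1, that of Mdm4 was called lower at P5 only, and that of Cop1 was not called at P5 and was called lower at P14, against the direction of the Cop1 probe on X.

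Cell cycle genes that p21 lowers fell at P5. Of 11 tested, 11 fell in scrambled mice, with a median of -1.002, led by the mitotic kinases Cdk1 (-1.55) and Plk1 (-1.21), and 11 fell in antimiR-34a mice, with a median of -0.97. Of all genes 27.2% fell at P5 in scrambled mice and 29.5% in antimiR-34a mice. At P14 2 fell in scrambled mice, Cdk1 (-0.94) and the checkpoint kinase gene Bub1 (-0.68), with a median of -0.31, and 4 fell in antimiR-34a mice. Of all genes 32.2% and 36% fell at P14, so these 2 counts were near or below the share of all genes and are no result about the list. All 11 fell from P5 to P14 in 21% O2 (median -1.93) and in 85% O2 (median -1.23). Of all genes 52.2% and 44.1% were called with age in either direction. None was called in the antimiR-34a comparisons.

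Target genes of 2 other stress pathways rose as well. Of 10 NRF2 target genes 9 rose at each age in scrambled mice, with medians of 1.52 and 1.99, led at P5 by the cystine transporter gene Slc7a11 (3.37) and Srxn1 (1.78), and at P14 by Slc7a11 (4.28) and the heme oxygenase gene Hmox1 (3.12). Of 10 ATF4 target genes 9 rose at P5, led by Slc7a11, which is on both lists, and Atf3 (2.13), and 8 rose and 1 fell at P14, led by Slc7a11 and Trib3 (2.66). Sesn2 and Gdf15 are also known to respond to ATF4, a background fact that bears on how these members are read.

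**Figure D4:**
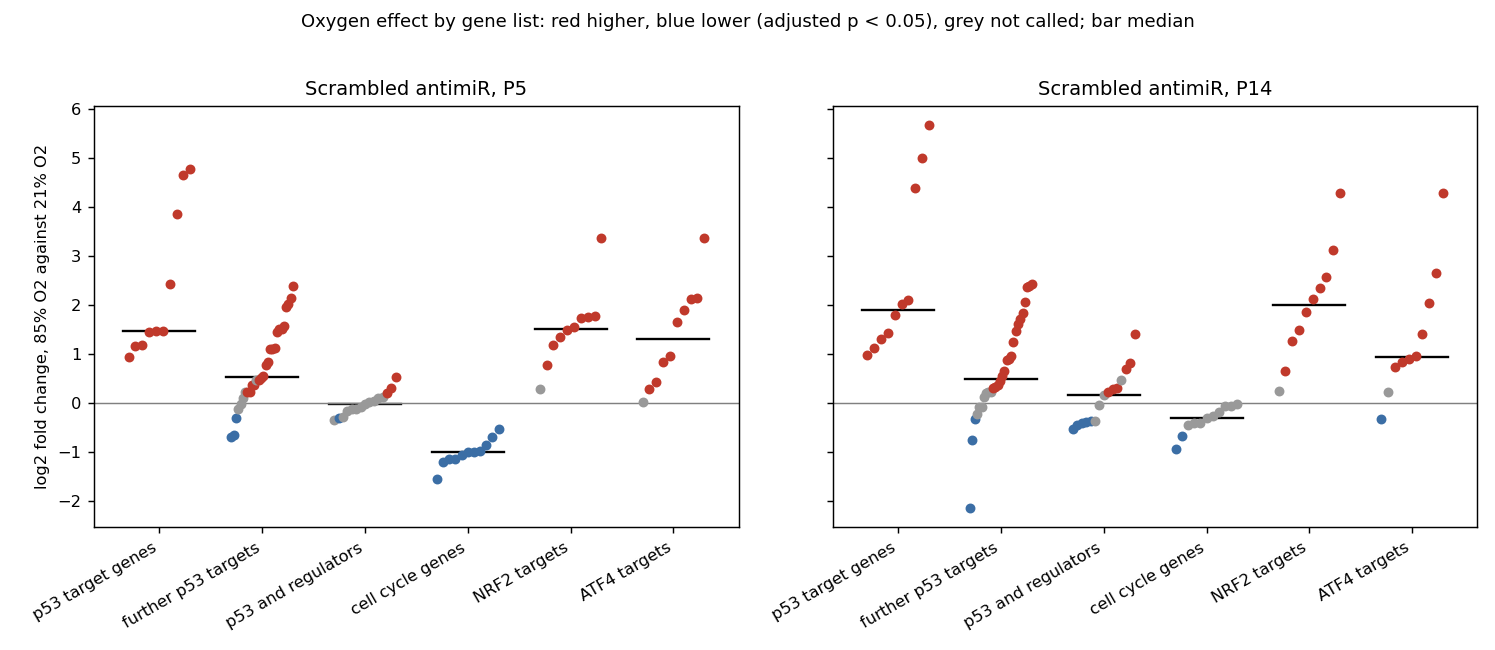
Log2 fold change in 85% O2 against 21% O2 in scrambled mice at P5 and P14, with 1 point per gene of 6 lists and a bar at the median; red and blue mark genes called higher and lower. All 10 members are red at both ages, of which Eda2r passed the filter only through the 85% O2 arrays. The 15 genes of p53 and its regulators have medians of -0.02 and 0.16. The 11 cell cycle genes are all blue at P5 and 2 of them at P14, where 32.2% of all genes fell.

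The 10 genes outside the members whose levels over the 32 arrays were most like the mean of the members, out of 25711, were Zmat3 (r = 0.991), Mmrn2 (0.990), Tnfrsf10b (0.990), Aen (0.987), Rps27l (0.987), Celf5 (0.987), Slc19a2 (0.986), Pvt1 (0.983), Ass1 (0.983) and Cdc34 (0.982). Zmat3, Tnfrsf10b and Aen were on the list of further p53 target genes. The arrays share the split between 2 oxygen levels and 4 slides, and the likeness is a description.

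Markers of some other cells moved with oxygen beside the members. In scrambled mice 18.6% of all genes tested rose and 27.2% fell at P5, and 29.4% rose and 32.2% fell at P14. Of 8 macrophage markers 7 rose at P5 and 6 at P14 in scrambled mice, and over all mice their mean log2 level was 0.99 to 1.32 in 21% O2 and 1.54 to 2.23 in 85% O2 at P5, and 1.91 to 2.32 and 2.50 to 3.12 at P14. Of 8 heart muscle markers 7 fell at P5 and 5 at P14. Of 7 adipocyte markers tested at P14 7 fell, and over all mice their mean level went from -1.16 to 2.47 in 21% O2 to -5.91 to -1.47 in 85% O2. Of 8 neutrophil markers 2 fell at P5, and 3 rose and 1 fell at P14. Of the red blood cell markers 3 of 8 fell at P5 and 4 of 7 at P14, and of the T cell and thymus markers 1 of 7 and 6 of 8. Of 9 skeletal muscle markers 3 fell at P5 and 5 at P14. The neutrophil counts at both ages were near or below the shares of all genes and are no result about those cells. The same holds at P5 for the red blood cell, T cell and skeletal muscle counts. The part of these shifts in the changes of the members was not tested.

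Replicate 4 of the P5 21% O2 scrambled group stood apart, with a mean level of the skeletal muscle markers of 2.60 where the lowest of its group was at -3.09. It was also the highest of its group in Cdkn1a (0.94), Ccng1 (0.70), Gdf15 (-2.23) and Eda2r (-6.52, not well above background), but not on the upstream Cdkn1a probe, and the lowest in Mdm2 (3.69) and Bax (2.74). Without it 10 of 10 members rose at P5, and the rise of Cdkn1a was 4.05 on the log2 scale. Replicate 2 of the P14 85% O2 antimiR-34a group was the highest of its group in 8 of the 10 genes, and replicate 3 was the lowest in 5. In the P14 85% O2 scrambled group replicate 1 was the lowest in 8 and replicate 4 the highest in 7, and in the P5 21% O2 antimiR-34a group replicate 2 was the highest in 7 and replicate 4 the lowest in 6. Without replicate 2 or 3 of the P14 85% O2 antimiR-34a group all 10 genes rose in antimiR-34a mice at P14, and without replicate 3 the rise of Bax was 1.60 on the log2 scale.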

How the data were processed

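Per the file headers, the authors scanned one-color Agilent arrays with Feature Extraction 10.7.3.1, and the deposited processed intensity of a spot has had background subtracted and spatial trends removed, each array on its own. The authors' table of log2 values, whose normalization the methods do not name, served as an alternative. Groups came from the labels, 4 mice each.

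The log2 processed intensity minus the array's 75th percentile was used, without control and outlier spots. A probe entered the test if some group had it well above background in all 4 mice, and the fit used limma 3.58.1 (R 4.3.3), one mean per group: 35982 probes at P5, 38455 at P14 and 39162 over both ages. P-values were adjusted by Benjamini-Hochberg over all probes tested, with a threshold of 0.05, and a gene was read on its brightest tested probe. P-values measure the spread between these mice, and the number of arrays limits the precision.

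All members were named for oxygen and age, and for antimiR-34a those called, Cdkn1a and the smallest p. From other lists the largest called changes were named, and all p53 regulators. Members and lists were chosen with earlier results of these data known. The comparison of the Cdkn1a probes was added after values were seen. The code was tested on simulated data. Alternatives were background correction, normalization, filter, probe choice, thresholds, the methods' t-test, a replicate block and leaving out each mouse. The slide as a block was not run, since each slide held 1 age and 1 oxygen level.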

Additional observations from a re-analysis of the deposited data

Results flagged for a closer look

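Among 104 groups of 4 mice, 1 for each probe and group, 2 held a mouse far from the other 3, where chance gives about 1 in 20. Bax stood at 3.40 in replicate 3 of the P14 85% O2 antimiR-34a group, with the next mouse at 4.56. The second Eda2r probe stood at -7.63 in replicate 4 of the P14 21% O2 scrambled group, with the next at -8.46, all not well above background.

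The oxygen change differed between P5 and P14 by the interaction term (limma) in 4 of the 9 genes measured on all arrays, in scrambled and in antimiR-34a mice, beside 41.9% and 44% of all genes. In scrambled mice the difference, P14 minus P5 on the log2 scale, was 0.55 for the main Cdkn1a probe, -0.42 for Ccng1, -0.49 for Trp53inp1 and 0.64 for Phlda3. On the upstream Cdkn1a probe it was 0.05, not called, but with normexp that probe rose by 3.73 at P5 and by 4.496 at P14. Without replicate 4 of the P5 21% O2 scrambled group, or without replicate 2 or 4 of the P14 21% O2 scrambled group, the main Cdkn1a probe was not called. The second Trp53inp1 probe (-0.13) was not called. In antimiR-34a mice the difference was 0.59 for the main Cdkn1a probe, 0.84 for Mdm2, 0.54 for Phlda3 and 1.23 for Gdf15. The upstream Cdkn1a probe gives no difference there, since no P5 21% O2 array was well above background. The fitted values of Eda2r were 1.03 on its main probe and 0.72 on the second in scrambled mice, and 0.71 on the second in antimiR-34a mice. They rest on 21% O2 signals not well above background on any array and measure no difference between the ages. Age and slide cannot be told apart in these values.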

How the results depend on the processing

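In each of the 4 oxygen comparisons 9 or 10 members rose under all 19 settings of each, and the lowest log2 rise was 0.70. The 9 arose where Eda2r was not tested (probes well above background on every array), under a 2-fold minimum, and for Bax at P5 in scrambled mice by the methods' t-test. A replicate block left the count of called members unchanged in all comparisons (10 in each oxygen comparison, 0 for antimiR-34a and its interaction with oxygen, 5 (the fitted Eda2r call included) and 4 for the oxygen-by-age interaction, 4 and 6 for age). In 0 of 10 comparisons checked did all 4 pairs of mice with equal replicate number correlate over 0.1 (correlations from -0.35 to 0.50). That check cannot exclude a weaker or partial pairing.

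Counts that moved were those for antimiR-34a in 85% O2 at P5 (1 with no filter on dim probes, 0 to 2 without 1 mouse), the oxygen-by-age interaction in scrambled mice (3 with only the groups compared, 2 at an adjusted p under 0.01, 1 with a 2-fold minimum, 3 to 5 without 1 mouse) and in antimiR-34a mice (1 with a 2-fold minimum), age in 21% O2 (8 with the mean over probes, 0 with a 2-fold minimum, 4 to 7 without 1 mouse) and age in 85% O2 (0 with a 2-fold minimum). The 1 gene left for the oxygen-by-age interaction in scrambled mice with a 2-fold minimum was Eda2r, whose fitted value of 1.03 measures no difference between the ages. A higher threshold leaves fewer calls by construction, and otherwise the cause was not tested.

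Some log2 differences turned sign, 2 of them called (Chek1 with oxygen at P14, -0.54, and Trp53inp1 with age in 85% O2, -0.29). With normexp, P5 oxygen values in scrambled mice were -0.000516 for Cdkn2a and -0.0475 for Usp7, the P14 value of Chek1 was 0.155, and the oxygen-by-age values in antimiR-34a mice were 0.0238 for Trp53inp1 and 0.836 (from -0.35) for the upstream Cdkn1a probe. With quantile normalization and with the authors' table, in that order, P5 oxygen values were 0.0086 and 0.00817 for Atm, -0.0351 and -0.0352 for Usp7, and 0.153 and 0.153 for Trp73. The oxygen-by-age values in antimiR-34a mice were -0.103 and -0.102 for Sesn2 and 0.133 and 0.132 for the upstream Cdkn1a probe, and the age value of Mdm2 in 85% O2 was -0.133 and -0.137. With the mean over probes, Hipk2 was 0.00236 (oxygen, P5), Cdkn1a 0.0356 (antimiR-34a, 85% O2, P5) and Trp53inp1 0.144 (age, 85% O2).

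Without 1 mouse, oxygen values in scrambled mice ranged from -0.0169 to 0.133 for Cdkn2a, -0.00811 to 0.0411 for Usp7 and -0.159 to 0.128 for Trp73 at P5, and from -0.108 to 0.0157 for Rchy1 at P14. Oxygen-by-age values ranged in scrambled mice from -0.148 to 0.0579 for Bbc3 and -0.0871 to 0.146 for the upstream Cdkn1a probe, and in antimiR-34a mice from -0.148 to 0.0287 for Trp53inp1, -0.432 to 0.0703 for Bax, -0.0503 to 0.0828 for Sesn2 and -0.155 to 0.0192 for Bbc3. Age values ranged from -0.0178 to 0.288 for Cdkn1a and -0.0963 to 0.256 for Bax in 21% O2, and from -0.0684 to 0.017 for Ccng1 in 85% O2. Signals not well above background limit Eda2r in 21% O2 and the upstream Cdkn1a probe at P5.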
